A study of Rattus norvegicus with 16 samples.

Results

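Peroxisome biogenesis and lipid oxidation genes were followed in brain RNA of Pink1-/- and wild-type (WT) rats of both sexes. The set lists 34 genes by symbol, and 33 of them had a row under that symbol among the 32754 gene identifiers of the deposited count tables. Acaa1a, a peroxisomal thiolase, had no row under its symbol. The set was drawn up with the lower level of Pex11a in Pink1-/- libraries already known, so the values of Pex11a are a description in both sexes and carry no test. The 4 groups of 4 libraries each were male Pink1-/- (animals 17, 18, 19 and 25), male WT (20, 22, 23 and 24), female Pink1-/- (548, 602, 736 and 983) and female WT (64, 111, 504 and 980). All 16 animals were 8 months old. Pink1-/- denotes disruption of both copies of the gene for the mitochondrial kinase PINK1, and the labels name no promoter, Cre line or treatment. The series title places the tissue in the nucleus ambiguus, a group of motor neurons in the medulla, while the sample labels say only brain.

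Peroxisomes are small organelles bounded by a single membrane that break down very long-chain and branched fatty acids, make the ether lipids called plasmalogens and remove hydrogen peroxide. Their enzymes are made in the cytosol and carried in by receptors that dock at a membrane pore and are pulled out again by an ATPase. Proteins of the PEX11 family elongate the membrane before the organelle divides. In the brain, plasmalogens are abundant in myelin, and inherited loss of peroxisome assembly causes severe neurological disease.

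Total counts ran from 10959412 to 13691846 in the 8 male libraries and from 13875621 to 26570195 in the 8 female libraries. Mitochondrial clone loci held 36.5% to 44% of all male counts and 1.77% to 11.9% of all female counts. Sex and library processing cannot be told apart, and every comparison of levels is made within a sex. Levels are CPM, that is counts scaled to the size of each library within a sex, and they do not correct for gene length, so genes are not ranked against each other. Chat, the enzyme that makes acetylcholine and marks motor neurons, ranged from 6.78 to 27.1 CPM in males and from 6.24 to 76.9 CPM in females. Pink1 had 21 to 34 counts in male Pink1-/- libraries against 779 to 1030 in male WT libraries, and 68 to 267 in female Pink1-/- libraries against 2139 to 3287 in female WT libraries. Among the males, Pink1-/- library 17 had the highest share of counts at Rn7sl1, the 7SL RNA of the signal recognition particle (2.1%), and WT library 23 the lowest (0.141%). These libraries also held the most extreme values of the peroxisome genes. Library 17 was the highest or lowest male for 21 of the 33 genes and library 23 for 16, against 2 to 6 for each of the other male libraries.

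The question put to the set was whether division, import and enzyme genes differed alike between genotypes. In males, 1 of the 31 genes tested besides Pex11a was called at an edgeR adjusted p under 0.05, the fatty acid transferase Crot, which rose. Over all 13770 genes tested in males the called share was 2.3%, with 1.08% called as higher in Pink1-/-. In females 0 of the 32 genes tested besides Pex11a were called by the same test, 2 had an unadjusted p under 0.05, and the called share of all genes was 0.059%. DESeq2 also called 0 in females. The median log2 fold change of Pink1-/- over WT was 0 in males without Pex11a, against 0.006 over all genes, and 0.02 in females without Pex11a, against 0.001. The median size of the change, regardless of sign, was 0.17 in males without Pex11a and 0.19 over all genes. In females it was 0.09 for each. The counts of the 33 genes summed to 715.5 to 825.2 CPM in male Pink1-/- and 784.8 to 849.2 CPM in male WT libraries. They summed to 966.1 to 1004 CPM in female Pink1-/- and 921.4 to 1104 CPM in female WT libraries, so the groups overlapped in each sex.

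**Figure D1:**
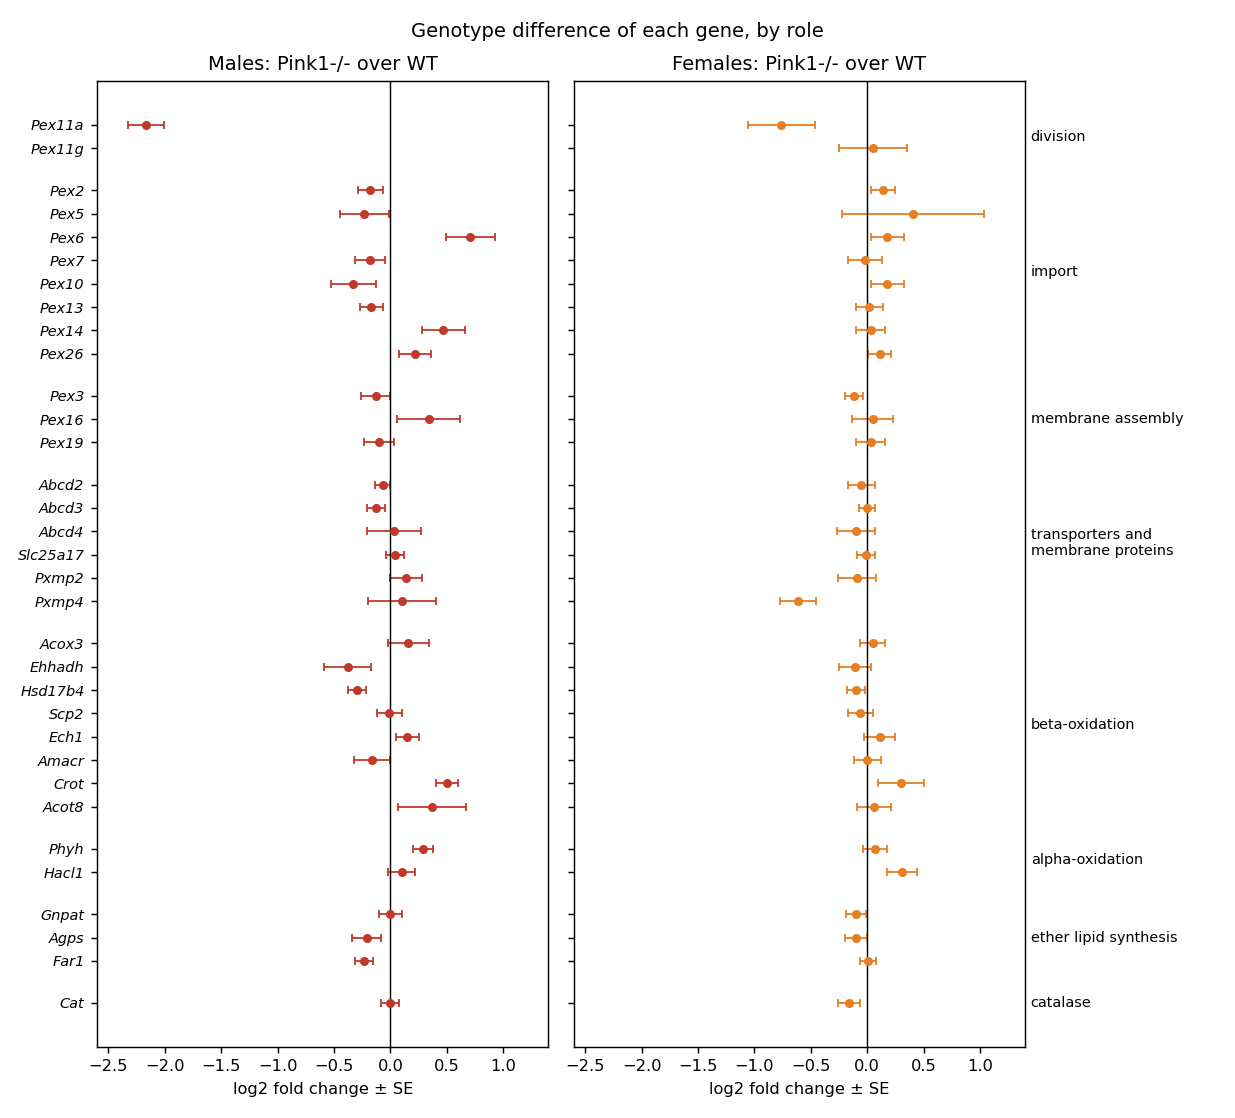
Log2 fold change of Pink1-/- over WT for each gene with a value, in males on the left and females on the right, with genes grouped by role down the page. Points are the estimates of the fit and bars their standard errors. Pex11a lies at -2.17 in males and -0.76 in females, and the other genes lie between -0.38 and 0.71 in males and between -0.61 and 0.41 in females. Pex11g has no male point.

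The division genes in the set are Pex11a and Pex11g. Pex11a, a membrane-elongating protein that peroxisome proliferators induce in rodent liver, had 2.59, 2.96, 3.21 and 3.68 CPM in male Pink1-/- libraries 17, 18, 19 and 25. It had 14.5, 17.3, 12.1 and 11.9 CPM in male WT libraries 20, 22, 23 and 24. All Pink1-/- males lay far below all WT males, with 34 to 51 counts against 146 to 231. The log2 fold change was -2.17 (standard error, SE, 0.16), a 4.49-fold lower level, and leaving out any single library kept it between -2.26 and -2.04. Without libraries 17 and 23 together it was -2.14. In bulk tissue, fewer cells of a type and less RNA per cell cannot be told apart.

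In females Pex11a had 5.58, 7.78, 5.88 and 5.88 CPM in Pink1-/- libraries 548, 602, 736 and 983, against 11.9, 17, 8.26 and 5.41 CPM in WT libraries 64, 111, 504 and 980. WT library 980 lay below every Pink1-/- library, so the groups overlapped, and the spread was in the WT group (10.7 ± 5.03 CPM, SD, n = 4) more than in the Pink1-/- group (6.28 ± 1.01 CPM). The log2 fold change was -0.76 (SE 0.3) and ran from -0.99 to -0.44 as single libraries were left out. The estimate was smallest without WT library 111 (-0.44) and largest without WT library 980 (-0.99). The female difference minus the male difference was 1.41 on the log2 scale, which is likewise given without a test.

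Pex11g, a constitutive relative of Pex11a, stood at the limit of detection in males. It had 6, 3, 2 and 2 counts in male Pink1-/- libraries 17, 18, 19 and 25 and 2, 1, 2 and 2 counts in the WT libraries, and it did not pass the filter on low counts. In females it had 1.47, 1.51, 1.08 and 0.988 CPM in Pink1-/- against 1.41, 0.699, 1.18 and 1.54 CPM in WT libraries. The groups overlapped, and the female estimate was 0.05 on the log2 scale (SE 0.3, edgeR adjusted p = 0.995).

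**Figure D2:**
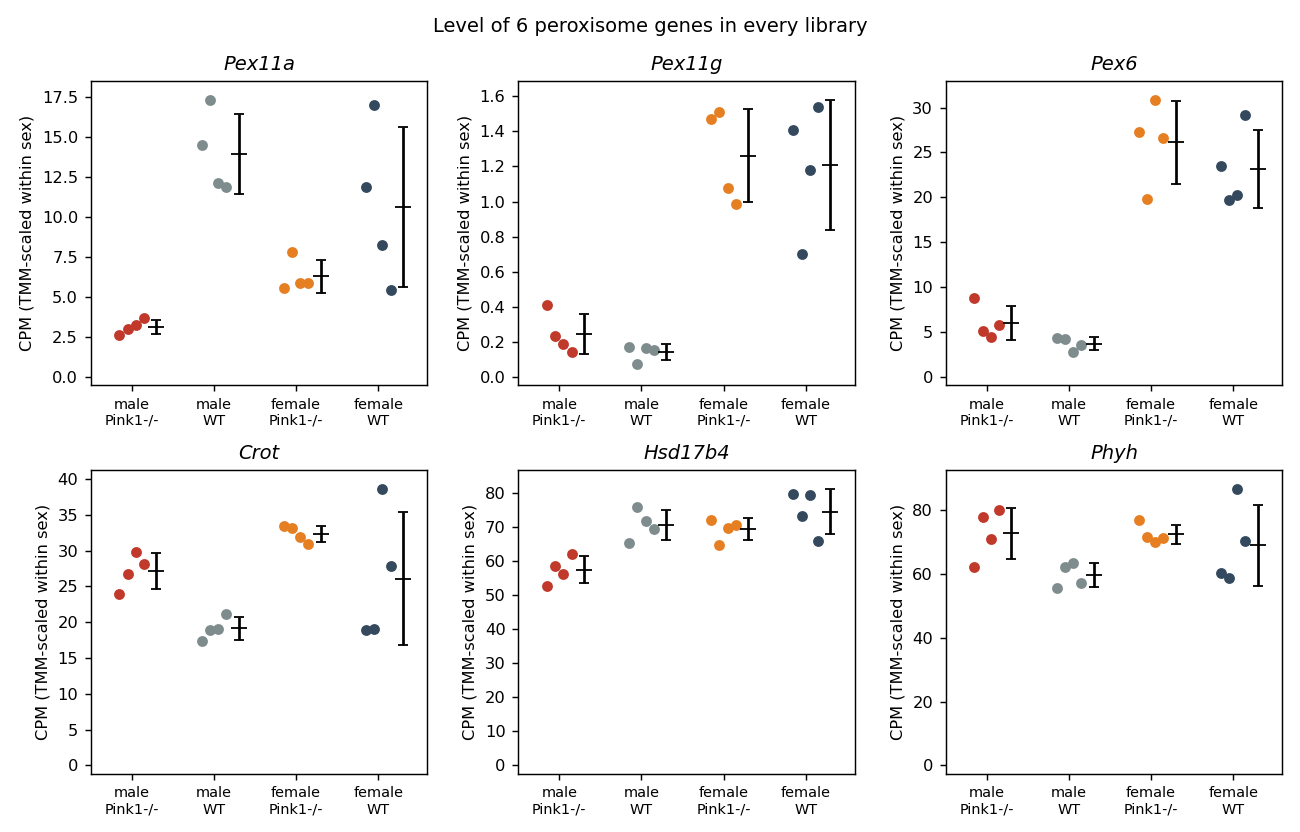
CPM of 6 genes in every library, 1 panel per gene, with male Pink1-/-, male WT, female Pink1-/- and female WT from left to right. Points are libraries, and the bar beside them is the mean ± SD of 4. Pex11a separates the male genotypes (2.59 to 3.68 CPM against 11.9 to 17.3 CPM) but not the female ones. Each panel has its own axis, and for Pex11g the male values are 1 to 6 counts.

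Division genes that peroxisomes share with mitochondria were taken from a further list of peroxisome genes. The dynamin Dnm1l, which cuts both organelles, averaged 131 ± 8.16 CPM in male Pink1-/- and 146 ± 11.2 CPM in male WT libraries (log2 fold change -0.16, edgeR adjusted p = 0.208). Its membrane adaptor Fis1 averaged 38.3 ± 4.55 CPM in male Pink1-/- and 30 ± 2.31 CPM in male WT libraries (0.36, edgeR adjusted p = 0.0699), and the adaptor Mff 16.1 ± 2.22 and 19.2 ± 2.53 CPM (-0.26, edgeR adjusted p = 0.21). Neither the dynamin nor its adaptors passed in males by the main edgeR test, although DESeq2 and the likelihood ratio test of edgeR called Fis1. The male Fis1 groups did not overlap, as in 15.2% of all genes tested in males. The female log2 fold changes of Dnm1l, Fis1 and Mff were -0.09, 0.03 and 0.34, with edgeR adjusted p of 0.993, 0.995 and 0.993. Among the further genes of the division group, which also hold Gdap1, Acbd4, Acbd5 and Vps13d, no member was called by the main edgeR test in either sex.

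The promoter of Pex11a lies in a shared stretch of DNA. RefSeq places the starts of Pex11a and of Wdr93, a gene for a WD-repeat protein, on opposite strands 83 bases apart. The 250 bases before the Pex11a start are shown because its level carries the largest difference in the set, those of Pex11g because it is its relative, and those of Crot because it was the called gene. Sequences are RefSeq, build GRCr8, 5′ to 3′ on the gene's strand. Pex11a is at chr1:143096492-143096741 on the minus strand, Pex11g at chr12:6310387-6310636 on the minus strand and Crot at chr4:26052874-26053123 on the plus strand. Capitals mark the 83 bases between the Pex11a and Wdr93 starts in the Pex11a sequence, and the GC-box letters GGGCGG, on either strand, in the others.
Pex11a: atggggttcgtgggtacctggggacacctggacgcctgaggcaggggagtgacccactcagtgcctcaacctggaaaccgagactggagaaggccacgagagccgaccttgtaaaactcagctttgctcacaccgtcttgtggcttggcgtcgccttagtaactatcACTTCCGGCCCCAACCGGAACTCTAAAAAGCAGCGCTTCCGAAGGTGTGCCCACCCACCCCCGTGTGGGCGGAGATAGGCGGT
Pex11g: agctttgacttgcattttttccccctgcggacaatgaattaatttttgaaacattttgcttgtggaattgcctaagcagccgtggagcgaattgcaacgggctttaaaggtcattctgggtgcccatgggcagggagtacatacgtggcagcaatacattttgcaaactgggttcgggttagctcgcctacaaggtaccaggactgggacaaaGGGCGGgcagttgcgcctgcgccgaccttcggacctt
Crot: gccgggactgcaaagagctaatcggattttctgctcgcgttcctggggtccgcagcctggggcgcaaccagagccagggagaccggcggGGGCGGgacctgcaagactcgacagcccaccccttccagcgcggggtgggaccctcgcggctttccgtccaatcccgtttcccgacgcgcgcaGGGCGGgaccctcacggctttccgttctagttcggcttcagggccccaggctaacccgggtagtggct

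Letters were searched on both strands of 300-base windows, from 250 bases before to 50 after each start. An entry was found for 31 of the 34 genes. GGGCGG was present in 26 of the 31 windows (83.9%), against 33.1% of all 33469 rat promoter windows in the table, which include noncoding genes. The Pex11a window holds GGGCGG and no CCAAT, and CCAAT was in 15 of 31 (48.4%) against 37.5% of all windows. A direct repeat of AGGTCA with 1 base of any kind between the copies, the element that nuclear receptors of the PPAR family bind, was found with at most 2 mismatches in 3 of 31 windows (Acot8, Amacr and Cat, 9.7%), against 3.8% of all windows. A single AGGTCA, which overlaps the repeat, was in 7 windows (22.6%) against 16.2%, and TATAAA in 2 (6.5%) against 14.2%. The Pex11a window held neither AGGTCA nor the repeat. Bases outside the 300-base windows were not searched, so elements farther from a start would not be seen.

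The nearest neighbours of Pex11a with a row, by RefSeq gene order on GRCr8, were measured at low counts. Wdr93 had 0, 3, 1 and 3 counts in male Pink1-/- libraries 17, 18, 19 and 25, against 4, 11, 6 and 10 counts in male WT libraries 20, 22, 23 and 24. The male groups did not overlap, at 0.136 ± 0.11 CPM in Pink1-/- and 0.605 ± 0.227 CPM in WT libraries (SD, n = 4 each, exact 2-sided permutation p = 0.0286, the smallest that 4 against 4 can give, adjusted 0.0571 over 4 tests). Of all genes tested in males, 15.2% did not overlap, and Wdr93 itself did not pass the filter on low counts. In females Wdr93 had 4, 3, 7 and 4 counts in Pink1-/- libraries against 13, 11, 4 and 12 counts in WT libraries, with overlap at WT library 504 (exact permutation p = 0.114, adjusted 0.143). Plin1, a lipid droplet protein gene on the other side, summed to 1 count over male Pink1-/- and 8 over male WT libraries (exact permutation p = 0.143, adjusted 0.143). In females Plin1 summed to 2 counts over Pink1-/- and 16 over WT libraries (exact permutation p = 0.0286, adjusted 0.0571). The female groups did not overlap, with 0 to 1 counts in each Pink1-/- library and 3 to 5 in each WT library. Of all genes tested in females, 3.38% did not overlap, and Plin1 itself did not pass the filter on low counts. These 4 tests were not planned beforehand, so their p-values are a description. After adjustment over the 4 tests neither neighbour passed, and 0.0571 was the smallest adjusted p among them. With a permutation p no smaller than 0.0286 in each test, the adjustment left little room to pass. The miss therefore does not show equal levels.

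Kif7, a ciliary kinesin gene with 3 genes between it and Pex11a, had enough counts for the fit across all genes, and its log2 fold changes were -0.06 in males (edgeR adjusted p = 0.908) and 0.12 in females (edgeR adjusted p = 0.993). Mesp1, a mesoderm transcription factor gene, had 1 count over all 16 libraries.

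**Figure D3:**
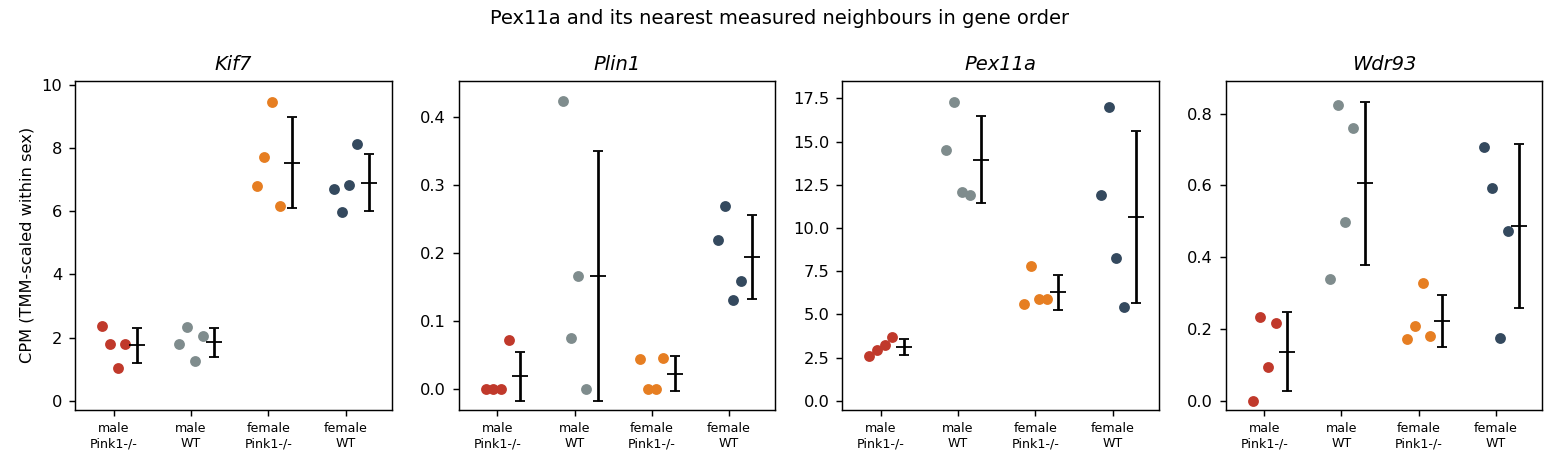
CPM of Pex11a and of its measured neighbours Kif7, Plin1 and Wdr93 in every library, 1 panel per gene, with male Pink1-/-, male WT, female Pink1-/- and female WT from left to right. Points are libraries and the bar beside them is the mean ± SD of 4. Wdr93 and Plin1 stay under 1 CPM, and Kif7 overlaps between genotypes in each sex.

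The 8 import genes did not share a direction in males. None was called in either sex (0 of 8), with log2 fold changes from -0.33 to 0.71 in males (median -0.17) and from -0.02 to 0.41 in females (median 0.12). The extremes in males were Pex10 at -0.33 (edgeR adjusted p = 0.3), a ring-finger protein that helps recycle the import receptor, and Pex6 at 0.71. Pex6 is an ATPase that pulls the receptor out of the membrane. It had 8.72, 5.06, 4.44 and 5.77 CPM in male Pink1-/- libraries 17, 18, 19 and 25, against 4.32, 4.2, 2.74 and 3.5 CPM in male WT libraries 20, 22, 23 and 24. The groups did not overlap, but library 17 stood well above the rest (SE 0.22, edgeR adjusted p = 0.0943). Without library 17 the log2 fold change of Pex6 was 0.47 (edgeR adjusted p = 0.221), and without 17 and 23 it was 0.35 (edgeR adjusted p = 0.392). With 1 surrogate variable in the fit it was 0.16 (edgeR adjusted p = 0.871). In females Pex6 had 27.3, 19.8, 30.8 and 26.6 CPM in Pink1-/- against 23.5, 19.7, 20.2 and 29.2 CPM in WT libraries, with overlap (log2 fold change 0.18, edgeR adjusted p = 0.993).

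Pex14, part of the docking site for the receptors, showed the same reliance on library 17. It had 15.6, 7.87, 11.4 and 10.6 CPM in male Pink1-/- libraries 17, 18, 19 and 25, against 7.53, 9.53, 6.56 and 9.27 CPM in male WT libraries, and the groups overlapped (log2 fold change 0.47, edgeR adjusted p = 0.157). Without library 17 it was 0.27. In females the log2 fold change of Pex14 was 0.03. The docking partner Pex13 had male log2 fold change -0.17 and the ring-finger protein Pex2 -0.18, with edgeR adjusted p of 0.299 and 0.322. Pex26, which anchors Pex6 to the membrane, stood at 0.22 in males and 0.11 in females, and Pex7, the receptor for enzymes with an amino-terminal signal, at -0.18 and -0.02.

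Pex5, the main import receptor, had 8.51, 8.65, 9.26 and 4.25 CPM in male Pink1-/- libraries 17, 18, 19 and 25, against 8.38, 10.7, 9.63 and 6.99 CPM in male WT libraries. In females it had 7.1, 4.54, 3.62 and 5.57 CPM in Pink1-/- against 6.91, 5.7, 3.23 and 0.158 CPM in WT libraries, the last being 4 counts in library 980. Log2 fold changes were -0.23 in males (edgeR adjusted p = 0.513) and 0.41 in females (SE 0.63, edgeR adjusted p = 0.993). The identifier of Pex5 carries the name of another locus in the authors' deposited female table, and that of Pex19 does so in the authors' deposited table of either sex. Reads may have been split between similar loci, and the values of both genes are uncertain.

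The membrane assembly genes Pex3, Pex16 and Pex19, which bring membrane proteins into the organelle, had 0 calls in either sex. Pex3 averaged 19.3 ± 3.05 CPM in male Pink1-/- and 21 ± 2.15 CPM in male WT libraries, a log2 fold change of -0.13. Pex16 stood at 0.34 in males, where library 17 had 4.43 CPM and the other Pink1-/- males 2.17 to 2.67 CPM, against 1.58 to 3.08 CPM in WT. Pex19 stood at -0.1. In females the 3 genes lay between -0.12 and 0.05.

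Transporters and other membrane proteins varied little in males, with log2 fold changes between -0.13 and 0.14 and 0 of 6 called. The ATP-driven importers Abcd2, for very long-chain acyl groups, and Abcd3, for branched and dicarboxylic ones, averaged 65.3 ± 2.67 and 76 ± 6.56 CPM in male Pink1-/- libraries, against 68.4 ± 5.46 and 83.2 ± 6.34 CPM in male WT libraries. Their relative Abcd4, known as a lysosomal cobalamin transporter, stood at 0.03 in males and -0.1 in females. The cofactor carrier Slc25a17 stood at 0.04 in males and -0.01 in females, and the channel protein Pxmp2 at 0.14 and -0.09.

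Pxmp4, a peroxisomal membrane protein, was the gene whose female groups did not overlap (1 of 32 genes besides Pex11a, against 3.38% of all genes tested in females). It had 4.63, 4.41, 4.23 and 3.32 CPM in female Pink1-/- libraries 548, 602, 736 and 983, against 7.61, 5.38, 6.25 and 6.16 CPM in female WT libraries 64, 111, 504 and 980. Every Pink1-/- female lay below every WT female, at -0.61 on the log2 scale (SE 0.16), but the difference did not pass over all genes (edgeR adjusted p = 0.577). In males Pxmp4 had 2.86, 2.18, 2.74 and 1.59 CPM in Pink1-/- against 2.45, 1.65, 1.25 and 3.34 CPM in WT libraries. The male groups overlapped throughout (log2 fold change 0.1, SE 0.3), and the sign turned when single libraries were left out.

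Among the 8 beta-oxidation genes with a row, Crot was called in males. Crot encodes carnitine octanoyltransferase, which hands shortened acyl chains to carnitine for export to mitochondria. It had 23.9, 26.7, 29.8 and 28.2 CPM in male Pink1-/- libraries 17, 18, 19 and 25, against 17.4, 18.9, 19.1 and 21.2 CPM in male WT libraries 20, 22, 23 and 24. All Pink1-/- males lay above all WT males. Crot rose 1.41-fold (log2 fold change 0.5, SE 0.1, edgeR adjusted p = 0.0227). The call held without Pink1-/- library 17 (edgeR adjusted p = 0.00982) or WT library 24 (0.0334). It ended without Pink1-/- library 18 (0.0625), 19 (0.0548) or 25 (0.0629) or WT library 20 (0.0563), 22 (0.0782) or 23 (0.0634), while the log2 fold change stayed between 0.45 and 0.56.

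In females Crot had 33.4, 33.1, 31.9 and 30.9 CPM in Pink1-/- libraries, against 18.9, 19, 38.6 and 27.9 CPM in WT libraries 64, 111, 504 and 980. The Pink1-/- females lay close together and the WT females were split, with libraries 64 and 111 low and 504 above every Pink1-/- library (log2 fold change 0.3, SE 0.2, edgeR adjusted p = 0.993). The female estimate was 0.18 without WT library 64, 0.17 without 111 and 0.55 without 504, and did not pass in any of these fits (edgeR adjusted p = 0.999, 0.966 and 0.431). WT libraries 64 and 111 were also the highest in Pex11a. The effect of genotype on Crot did not differ between the sexes by the interaction test (female minus male -0.19 on the log2 scale, edgeR adjusted p = 0.744). That miss does not show that the sexes respond alike.

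Hsd17b4, the multifunctional enzyme for very long-chain and branched substrates, lay on the lower side in males. It had 52.8, 58.6, 56.2 and 62.2 CPM in male Pink1-/- libraries 17, 18, 19 and 25, against 65.2, 75.9, 71.9 and 69.5 CPM in male WT libraries. The groups did not overlap, but the difference missed the threshold (log2 fold change -0.3, SE 0.08, edgeR adjusted p = 0.0602). It passed with DESeq2 (adjusted p = 0.021) and with the likelihood ratio test of edgeR (adjusted p = 0.0272). Without libraries 17 and 23 its log2 fold change was -0.25 (edgeR adjusted p = 0.183). In females it had 72.2, 64.7, 69.8 and 70.6 CPM in Pink1-/- against 79.8, 73.1, 79.5 and 65.8 CPM in WT libraries, with overlap (log2 fold change -0.1, edgeR adjusted p = 0.993).

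Ehhadh, the other multifunctional enzyme of the pathway and a PPARA target in rodent liver, had 2.93, 3.35, 2.93 and 4.11 CPM in male Pink1-/- against 3.13, 4.35, 5.89 and 4.03 CPM in male WT libraries. The groups overlapped, with WT library 23 the highest (log2 fold change -0.38, edgeR adjusted p = 0.256). Without libraries 17 and 23 it was -0.14. The branched-chain oxidase Acox3 stood at 0.16 in males and 0.05 in females, the thiolase and sterol carrier Scp2 at -0.01 and -0.06, and the dienoyl isomerase Ech1 at 0.15 and 0.11. The racemase Amacr stood at -0.16 and 0, and the thioesterase Acot8 at 0.37 (SE 0.3) and 0.06. Their edgeR adjusted p lay at 0.357 or above in males and 0.993 or above in females.

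The thiolase listed as Acaa1a shares an identifier with Acaa1b. The count tables name that identifier Acaa1b and the authors' deposited tables name it Acaa1a. It averaged 1.54 ± 0.573 CPM in male Pink1-/- and 1.73 ± 0.748 CPM in male WT libraries, and 7.13 ± 1.41 CPM in female Pink1-/- and 7 ± 0.951 CPM in female WT libraries (SD, n = 4 each). The groups overlapped in each sex, with Acaa1b log2 fold changes of -0.14 in males and 0.04 in females.

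The alpha-oxidation enzymes Phyh and Hacl1 shorten phytanic acid, a branched fatty acid from the diet, by a single carbon. Phyh, which hydroxylates it, had 62.2, 78, 71 and 79.9 CPM in male Pink1-/- libraries 17, 18, 19 and 25, against 55.6, 62.2, 63.3 and 57.1 CPM in male WT libraries 20, 22, 23 and 24. Library 17 lay within the WT range and the other Pink1-/- males above it (log2 fold change 0.29, SE 0.09, edgeR adjusted p = 0.0875). Without library 17 Phyh stood at 0.36 and passed (edgeR adjusted p = 0.0392). In females it had 76.8, 71.7, 70.1 and 71.2 CPM in Pink1-/- against 60.2, 58.8, 86.6 and 70.2 CPM in WT libraries, with libraries 64 and 111 again the low ones (log2 fold change 0.07, edgeR adjusted p = 0.993).

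Hacl1, the lyase that follows, had 21.4, 19.6, 16.8 and 18 CPM in female Pink1-/- against 13.6, 13, 15.7 and 18.5 CPM in female WT libraries. Only WT library 980 reached the Pink1-/- range (0.31 on the log2 scale, SE 0.13, edgeR adjusted p = 0.993). In males it had 10.1, 9.27, 9.83 and 10.7 CPM in Pink1-/- against 7.95, 10.4, 10.1 and 8.67 CPM in WT libraries, and the groups overlapped (0.1, edgeR adjusted p = 0.602).

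The plasmalogen genes Gnpat, Agps and Far1 had 0 calls. Far1 supplies the fatty alcohol of the ether bond. It had 71, 84, 76.9 and 84.4 CPM in male Pink1-/- libraries 17, 18, 19 and 25, against 88.2, 97.9, 98.8 and 85.7 CPM in male WT libraries. The groups did not overlap, although library 25 and WT library 24 lay close (-0.23 on the log2 scale, SE 0.08, edgeR adjusted p = 0.118). In females Far1 had 81.8, 77.6, 75.9 and 80.2 CPM in Pink1-/- against 79.5, 80.7, 81.3 and 71.2 CPM in WT libraries, with a log2 fold change of 0.01. Agps, which forms the ether bond, had 23.4, 30.8, 32 and 35.9 CPM in male Pink1-/- against 31.1, 38.6, 39.5 and 32.3 CPM in male WT libraries, with overlap and library 17 the lowest (-0.21, edgeR adjusted p = 0.296). Gnpat, which acylates the glycerol backbone, stood at 0 in males and -0.1 in females. Cat, the catalase that removes hydrogen peroxide, averaged 64.9 ± 5.78 CPM in male Pink1-/- and 64.9 ± 2.86 CPM in male WT libraries, and stood at -0.16 in females (edgeR adjusted p = 0.993).

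Besides Pex11a, 4 of 31 genes had male groups that did not overlap (Crot, Pex6, Hsd17b4 and Far1), while 15.2% of all genes tested in males did so. An unadjusted p under 0.05 was reached by 6 of the 31, against 26.2% of all genes tested in males, and by 2 of 32 besides Pex11a in females, against 4.64%. The sign of the log2 fold change was the same in both sexes for 19 of 31 genes, against 55.8% of all genes tested in both. In males neither share of the set was larger than that of all genes. In the fit of all 16 libraries with sex as a covariate 0 of the 32 genes besides Pex11a were called, against 0.685% of all genes, and for the interaction of sex and genotype 0 of the same 32, against 0.0798%. At an unadjusted p under 0.05 the counts were 5, against 15.4% of all genes, and 3, against 14%, and DESeq2 also called 0 in each.

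**Figure D4:**
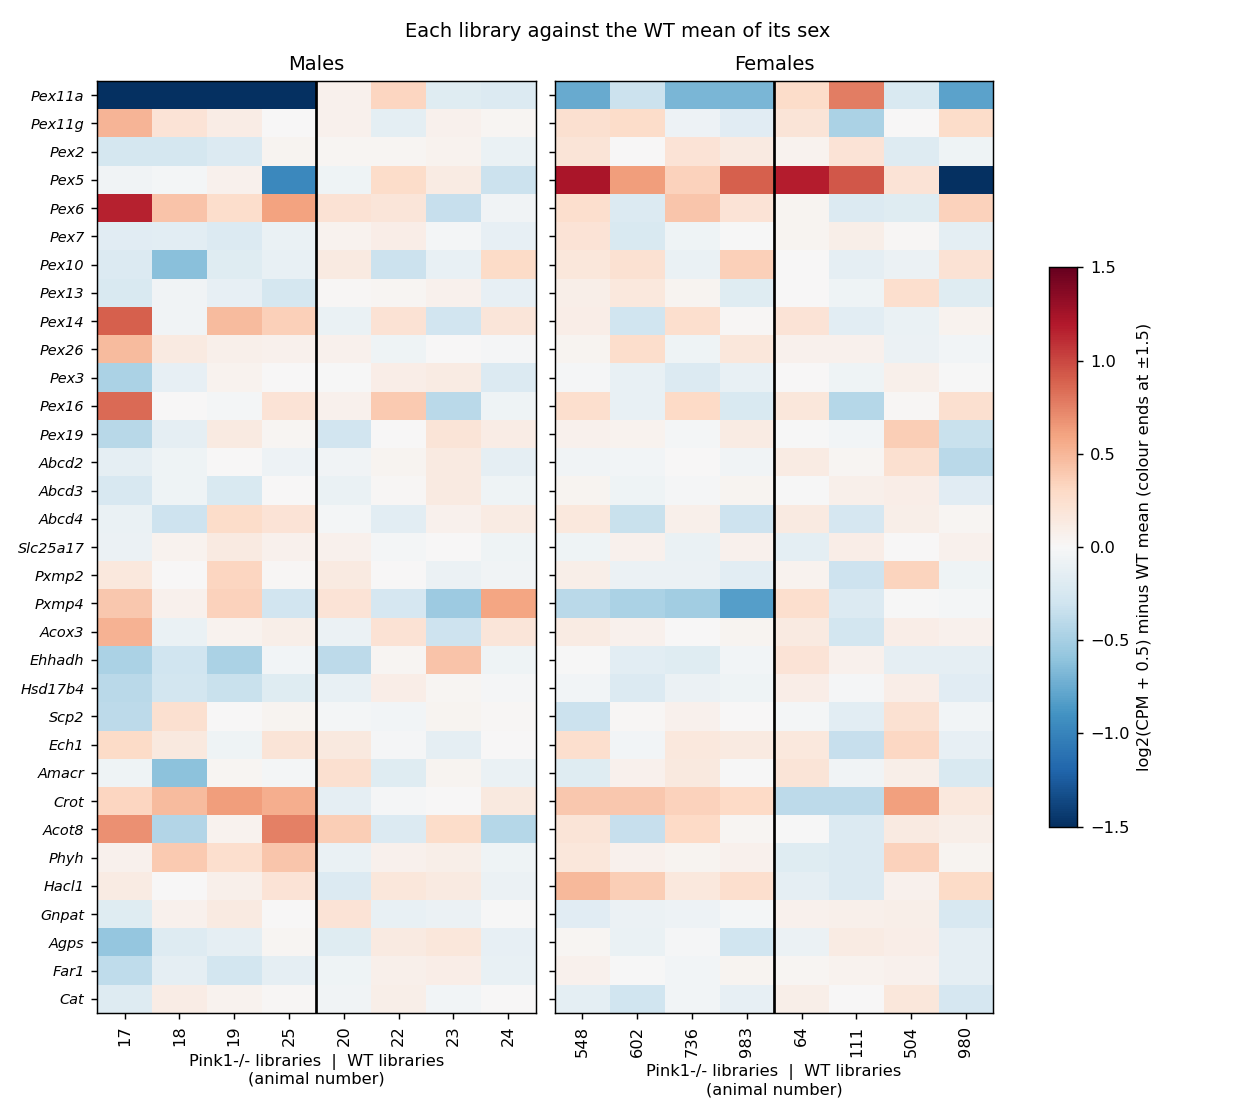
Each library set against the WT mean of its sex, as log2(CPM + 0.5) minus the mean of the 4 WT libraries, with genes by role down the page and libraries named by animal number. Males are on the left and females on the right, Pink1-/- before WT in each, and the colour scale ends at ±1.5. The Pex11a row is low in all 4 male Pink1-/- libraries, and library 17 differs from the other Pink1-/- males in several rows.

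Libraries of a group agreed to different degrees. The coefficient of variation of the 33 genes had a median of 14.9% in male Pink1-/-, 10.4% in male WT, 9.8% in female Pink1-/- and 12.8% in female WT libraries. The largest in each sex belonged to Pex11g in male Pink1-/- (47.4%) and Pex5 in female WT libraries (74.6%).

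In the authors' deposited male table, which comes from a likelihood ratio test, 3 of the 31 genes besides Pex11a had a false discovery rate under 0.05, against 6.21% of all 13828 genes listed there. They were Crot (log2 fold change 0.5, rate 0.00201), Hsd17b4 (-0.3, 0.0403) and Pex6 (0.71, 0.045). Of 32 such genes, 0 did so in the authors' deposited female table, against 0.425% of all 14604 genes.

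Further peroxisome genes outside the set gave 1 call in males, a fall, among 41 tested (1.22% of all genes were called as lower). In females 0 among 43 were called, against 0.059% of all genes, and DESeq2 also called 0. An unadjusted p under 0.05 was reached by 10 of the 41 in males, against 26.2% of all genes. In females 4 of the 43 reached it, against 4.64%. Nudt12, which cleaves NADH in peroxisomes, had 11.8, 16, 16.2 and 15 CPM in male Pink1-/- libraries 17, 18, 19 and 25, against 29, 25.1, 30.4 and 24.6 CPM in male WT libraries 20, 22, 23 and 24. The groups lay well apart, and Nudt12 fell by 0.89 on the log2 scale (SE 0.12, edgeR adjusted p = 0.00225). In females Nudt12 had 15.5, 17.4, 18.5 and 17.9 CPM in Pink1-/- against 25.3, 21.7, 24.9 and 17.3 CPM in WT libraries. WT library 980 lay within the Pink1-/- range, and the female difference did not pass (log2 fold change -0.36, edgeR adjusted p = 0.917). In the fit of all 16 libraries with sex as a covariate Nudt12 was called as lower (log2 fold change -0.62, edgeR adjusted p = 0.00899). It was the 1 call among 42 further genes tested there, against 0.685% of all genes. The interaction of sex and genotype did not pass for Nudt12 (edgeR adjusted p = 0.23).

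Related lipid pathways held no calls by edgeR (0), and DESeq2 also called 0 in the 3 lists in either sex. The called share of all genes by edgeR was 2.3% in males and 0.059% in females. By DESeq2 it was 6.13% in males. With shares this low, 0 calls in short lists say little about these pathways. Of 20 mitochondrial fatty acid oxidation genes 0 passed in either sex, with the neuronal carnitine transferase Cpt1c at 0.41 in males (edgeR adjusted p = 0.134) and the electron carrier Etfb at -0.47 in females (edgeR adjusted p = 0.535). At an unadjusted p under 0.05 the counts were 7 in males and 2 in females. Of all genes tested, 26.2% in males and 4.64% in females reached it, which applies to the other lists here as well. Of 12 PPAR receptors and partners, the nuclear receptor family that induces peroxisome genes in rodent liver, 0 passed in either sex, and 5 and 0 had an unadjusted p under 0.05. Rxrg, a partner receptor, averaged 1.33 ± 0.374 CPM in male Pink1-/- and 0.618 ± 0.167 CPM in male WT libraries (1.11, edgeR adjusted p = 0.0786). It had 10 to 22 counts in male Pink1-/- and 6 to 10 counts in male WT libraries. Rxrg thus passed the filter on low counts through the group where it was higher, and its p is no support for a difference. Of the PPARA targets of rodent liver that could be tested, 0 of 9 passed in males and 0 of 10 in females, with 1 at an unadjusted p under 0.05 in each sex. The lipid droplet protein Plin2 stood at -0.33 in females (edgeR adjusted p = 0.803).

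Markers of cell types were compared beside these genes. Cholinergic motor neuron markers summed to 81.39 to 246.4 CPM in male Pink1-/- and 93.6 to 376.9 CPM in male WT libraries. In females the sums were 92.33 to 342.9 CPM in Pink1-/- and 40.34 to 514.3 CPM in WT libraries. The groups overlapped in each sex. Members tested split 1 up and 5 down in males, and 2 up and 5 down in females. Their part in the levels above was not tested. The 5 identifiers of meningeal markers summed to 13.14 to 16.26 CPM in male Pink1-/- and 22.93 to 30.91 CPM in male WT libraries, which did not overlap, with Ogn the called member (log2 fold change -1.81). Without the identifiers named Ogn the sums were 8.512 to 11.14 CPM in male Pink1-/- and 9.14 to 12.92 CPM in male WT libraries, which overlapped. In females they summed to 11.08 to 15.35 CPM in Pink1-/- and 8.736 to 16.1 CPM in WT libraries. The part of meningeal tissue in the male Pex11a and Nudt12 values was not tested. The summed markers of astrocytes (2529 to 2852 CPM in Pink1-/- against 2643 to 2896 CPM in WT), oligodendrocytes (8473 to 9420 against 8211 to 10050 CPM) and neurons (5522 to 6267 against 5804 to 7485 CPM) overlapped between male genotypes. Single members called in males were Gpr17 of oligodendrocyte precursors, P2ry12 of microglia and Pdgfrb of pericytes, which rose. Of all genes tested in males, 1.08% were called as higher. The female groups of Pdgfrb did not overlap either (log2 fold change 0.35, edgeR adjusted p = 0.609), as in 3.38% of all genes tested in females. Pdgfrb was also called over both sexes (edgeR adjusted p = 0.0108), as were 0.685% of all genes. Gpr17 and P2ry12 stood at 0.03 and -0.09 in females. Members tested in males split 2 up and 2 down for precursors, 4 and 1 for microglia, and 3 and 2 for endothelium and pericytes. The precursor sum averaged lower in male Pink1-/- (171.6 CPM) than in male WT libraries (188.3 CPM). The sums of these 3 lists overlapped between the male genotypes. Those sums were 168.7 to 175.1 CPM in male Pink1-/- against 174 to 210.1 CPM in male WT libraries for precursors, 76.1 to 89.82 against 60.76 to 90.78 CPM for microglia, and 172.6 to 186.9 against 171.3 to 182.7 CPM for endothelium and pericytes. Choroid plexus and ependymal lists summed to at most 7.054 and 2.289 CPM in any library, and in each of them 1 marker had no count.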

How the data were processed

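RNA was measured in 16 libraries, which the animal numbers in the titles show as separate animals. The authors deposited estimated counts per gene, already whole numbers, made with RSEM, and edgeR 3.9 is also named, per the submitters' processing notes. Neither an aligner nor a build or annotation was given in the sources used here. The authors also deposited comparison tables with log2 fold changes, a likelihood ratio score, p-values and false discovery rates, per the file headers. No per-sample column was left unused (0). The members and lists were chosen with earlier results of these data known.

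Genes were kept with the filterByExpr defaults (minimum count 10, minimum total 15), scaled by trimmed means of M-values and tested with edgeR 4.0.16 quasi-likelihood functions in R 4.3.3, each sex apart, with Benjamini-Hochberg adjustment over all genes tested. Sex was a covariate, or interacted with genotype, in fits of all 16 libraries. Standard errors were derived by dividing the log2 fold change by the root of F. The procedure was tested on simulated data. The neighbours Wdr93 and Plin1 were compared with exact permutation tests (scipy 1.17.1), which were not planned beforehand. Alternatives used DESeq2 1.42.0, limma 3.58.1 and sva 3.50.0. RefSeq names and sequences are from GRCr8. Depth is the total count per library, and RSEM can split reads between near-identical copies.

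Values per library are given for Pex11a, Pex11g, every called member and further members by smallest unadjusted p in either sex up to 12. Other lists give up to 4 called genes each, or the gene with the smallest p. The values of Pex5, of Acaa1b and of division genes outside the set were chosen after they were seen. Some genes are not reported here.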

Additional observations from a re-analysis of the deposited data

Results flagged for a closer look

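Of 132 combinations of gene and group of 4 libraries, 6 held a library far from the other 3, judged by its gap against the whole range of the group. Chance alone flags about 1 in 20 such groups. Pex11a had 7.78 CPM in female Pink1-/- library 602, against 5.58 to 5.88 CPM in the other Pink1-/- females. Pex2 had 12.4 CPM in male Pink1-/- library 25, against 9.94 to 10.3 CPM in the others of its group, and 11.2 CPM in male WT library 24, against 12.3 to 12.5 CPM. Pex5 had 4.25 CPM in male Pink1-/- library 25, against 8.51 to 9.26 CPM. Pex26 had 8.17 CPM in male Pink1-/- library 17, against 6.06 to 6.39 CPM. Gnpat had 36.2 CPM in female WT library 980, against 44.8 to 45.4 CPM in the other WT females.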

How the results depend on the processing

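No paired analysis was possible because the groups share no animal numbers. In males the count of called genes of the set besides Pex11a was 1. It was 4 at an adjusted p under 0.10 (Crot, Hsd17b4, Pex6 and Phyh, where 8.85% of all genes passed), 3 with the likelihood ratio test (Crot, Hsd17b4 and Pex6, 6.95% of all genes) and 2 with DESeq2 (Crot and Hsd17b4, 6.13%). Crot and Phyh were the 2 called with voom weights (3.08% of all genes), with 1 surrogate variable (0.443%) and without libraries 17 and 23 (1.11%), a choice made after seeing the data. Leaving out single libraries gave 0 to 2, where 0.703% to 1.55% of all genes passed. It gave 2 without Pink1-/- library 17 and 0 without 18, 19, 25, 20, 22 or 23. The count over both sexes was 0, where 103 of all genes were called. The count was 2 under voom weights, where 221 of all genes were called. As libraries were left out it was 0 to 1. It was 1 without WT 504 or 980, where 118 and 282 of all genes were called. Other peroxisome genes called in males numbered 1, where 2.3% of all genes were called. They numbered 5 at 0.10 (8.85% of all genes) and 2 without the low count filter (2.42%). They numbered 4 with DESeq2 (6.13%), 5 with the likelihood ratio test (6.95%) and 3 with voom weights (3.08%). As libraries were left out they numbered 1 to 2 (2 without Pink1-/- 25, 1.18% of all genes). Female and interaction counts of the set stayed at 0 under every alternative run.

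All genes called numbered 317 in males (98 to 217 with a library left out, 61 to 1219 otherwise), 9 in females (7 to 16, 9 to 58), 12 for the interaction (3 to 13, 3 to 95) and 103 over both sexes (56 to 282, 37 to 252).

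The sign turned for small differences that were not called: Pex11g in females with voom weights (0.00) and as libraries were left out (-0.14 to 0.19), Pxmp4 in males with a surrogate variable (-0.37), without libraries 17 and 23 (-0.21) and as libraries were left out (-0.09 to 0.39), Phyh (0.00 to 0.20) and Far1 (-0.03 to 0.03) in females as libraries were left out, Pex14 in females with voom weights (-0.01) and as libraries were left out (-0.05 to 0.11), and Agps in males with a surrogate variable (0.08). Of the single-gene values under alternatives, 371 kept direction and side of the threshold, 18 turned sign, 7 gained a call and 6 lost one. For Pex11a in males, which carries no test, kept meant the same sign and a shift below the SD between libraries. The female values of Pex11a were counted as kept by sign and side of the threshold. They carry no test either, and their place in this count is no support for a difference. No scaling moved the median of all genes by 0.1 or more. The cause of these changes was not tested. Depth limits Pex11g in males and the neighbours of Pex11a.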
